A study of Caenorhabditis elegans with 3 samples.

Results

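The heterochronic genes examined here are hbl-1, lin-14, lin-28, lin-41, lin-42, lin-46, lin-29 and daf-12, 8 named genes of 19973 nuclear protein-coding genes. All peaks whose summit lay in one of these genes or within 10 kb on either side were taken from chromatin immunoprecipitation and sequencing (ChIP-seq) of UNC-55. UNC-55 is a nuclear receptor of Caenorhabditis elegans related to the COUP transcription factors of vertebrates. The animals were L2 larvae of mixed sex from strain NC1639, which carries the transgene wdIs49. In wdIs49 the ttr-39 promoter, written pttr39 in the labels and active in GABA motor neurons, drives UNC-55a fused to GFP, and a dpy-20(+) marker is present. The profile is therefore of the tagged transgenic protein, and the chromatin came from whole animals. Weaker binding and binding in fewer cells cannot be told apart. The 3 samples are biological replicates of 1 group, and the comparisons use no control sample. The labels do not describe the tag in 1 way: the sample descriptions name eGFP-unc-55, and a note on replicate 3 places GFP-FLAG at the C terminus.

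Heterochronic genes set the order of larval cell fates in C. elegans. Early-acting members such as lin-14, lin-28 and hbl-1 hold cells in early programmes, and microRNAs including lin-4 and let-7 switch them off so that later programmes can follow. hbl-1, which encodes a Hunchback-like zinc finger transcription factor, also acts in GABA motor neurons, where genetic studies placed it downstream of unc-55 in synapse remodelling.

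The peak sequences below belong to 4 of these genes and are shown because the results for those genes rest on them. The optimal list is the authors' set of reproducible peaks, and a summit is the position of highest enrichment in a peak. All 3 optimal peaks for which hbl-1 has the nearest start are shown, with the strongest promoter-proximal peak and the strongest intronic peak of lin-14, and the strongest peaks of lin-42 and daf-12. Each sequence is RefSeq sequence of WBcel235 (ce11) on the strand of the gene, written 5′ to 3′, and the 21 bases in capitals are centred on the summit. The daf-12 sequence is the 201 bases centred on the summit of a longer peak, and the other sequences are whole peaks. Positions are chrX:5816290-5816584, chrX:5817301-5817489 and chrX:5819943-5820070 for hbl-1, on the plus strand. They are chrX:11464473-11464695 and chrX:11467376-11467648 for lin-14, plus strand, chrII:1246859-1247097 for lin-42, minus strand, and chrX:10637538-10637738 for daf-12, plus strand. Distances in the names are from the summit to the gene's nearest annotated transcript start, negative upstream.
hbl-1 at -5728 bp: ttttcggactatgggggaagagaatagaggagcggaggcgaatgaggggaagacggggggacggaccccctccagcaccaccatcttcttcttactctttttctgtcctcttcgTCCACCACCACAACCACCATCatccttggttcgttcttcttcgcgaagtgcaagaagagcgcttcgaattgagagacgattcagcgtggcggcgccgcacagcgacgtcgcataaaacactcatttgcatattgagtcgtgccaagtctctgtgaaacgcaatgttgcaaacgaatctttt
hbl-1 at -4758 bp: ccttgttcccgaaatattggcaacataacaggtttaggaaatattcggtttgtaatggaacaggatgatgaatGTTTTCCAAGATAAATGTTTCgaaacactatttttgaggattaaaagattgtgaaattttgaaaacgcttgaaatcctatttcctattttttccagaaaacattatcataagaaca
hbl-1 at -2103 bp: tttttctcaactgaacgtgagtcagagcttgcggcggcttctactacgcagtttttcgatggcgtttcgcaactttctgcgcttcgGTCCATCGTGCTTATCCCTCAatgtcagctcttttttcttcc
lin-14 at -969 bp: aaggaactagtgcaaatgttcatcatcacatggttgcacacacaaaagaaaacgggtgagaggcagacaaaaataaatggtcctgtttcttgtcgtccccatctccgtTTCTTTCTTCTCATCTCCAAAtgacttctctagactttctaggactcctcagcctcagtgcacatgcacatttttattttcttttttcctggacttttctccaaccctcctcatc
lin-14 at +1965 bp: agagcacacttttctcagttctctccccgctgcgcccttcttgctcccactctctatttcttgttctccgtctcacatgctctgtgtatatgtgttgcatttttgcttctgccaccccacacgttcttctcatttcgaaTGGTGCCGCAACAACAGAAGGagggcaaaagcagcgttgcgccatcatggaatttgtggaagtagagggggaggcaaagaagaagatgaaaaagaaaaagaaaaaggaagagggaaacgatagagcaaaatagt
lin-42 at -2967 bp: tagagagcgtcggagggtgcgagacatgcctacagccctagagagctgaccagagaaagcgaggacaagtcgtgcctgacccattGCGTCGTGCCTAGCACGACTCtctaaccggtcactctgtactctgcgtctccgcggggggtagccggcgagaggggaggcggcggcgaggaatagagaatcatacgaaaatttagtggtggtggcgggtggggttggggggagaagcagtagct
daf-12 at +1730 bp: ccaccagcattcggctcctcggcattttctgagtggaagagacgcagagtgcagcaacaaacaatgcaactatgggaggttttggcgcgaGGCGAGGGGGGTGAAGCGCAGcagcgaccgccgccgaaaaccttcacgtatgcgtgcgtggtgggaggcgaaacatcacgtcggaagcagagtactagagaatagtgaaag

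The optimal list held 5993 peaks. The pooled list, called on all replicates together and labelled by the authors as peaks and background, held 30000. The lists of replicates 1, 2 and 3 held 30000, 30000 and 25262 peaks. Signal is the score per peak that the authors' caller wrote, on a scale not stated, so it was used for order within a list only. Rank 1 is the strongest peak of a list. Read depth is unknown. The endogenous genes matching the transgene (unc-55, ttr-39 and dpy-20) had 0 optimal summits in their windows and 0 pooled summits in their promoter windows.

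UNC-55::GFP peaks lay in or near all 8 genes, and 28 optimal summits fell in their windows. A window drawn in the same way, a gene's own body with 10 kb on either side, held an optimal summit for 62.9% of all protein-coding genes. The share was 66.2% for those on X, where hbl-1, lin-14 and daf-12 lie. These windows were not matched for gene length. A summit in the window is therefore common. Of the 28 summits, 21 had one of the 8 genes as the gene with the nearest transcript start. These 21 belonged to 6 genes, against 22.1% of all protein-coding genes that own the nearest start of an optimal summit. For lin-46 and lin-29 the nearest start belonged to another gene at every summit.

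In the promoter window, which reached from 2000 bp before each annotated transcript start to 500 bp past it, 5 of the 8 genes had an optimal summit (lin-14, lin-28, lin-41, lin-42 and lin-46). Among all protein-coding genes 25.5% did. With the 5993 strongest peaks of each replicate in place of the optimal list, 4, 6 and 5 of the 8 genes had one in replicates 1, 2 and 3 (5.0 ± 1.0, SD, n = 3). The 25.5% is for the optimal list, and no share of all genes is given for the replicate lists. hbl-1, lin-29 and daf-12 had no optimal summit in the promoter window. In replicate 2 daf-12 had a summit of rank 5558 lying 1713 bp upstream of its second annotated start, and in replicate 1 lin-46 had none.

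**Figure D1:**
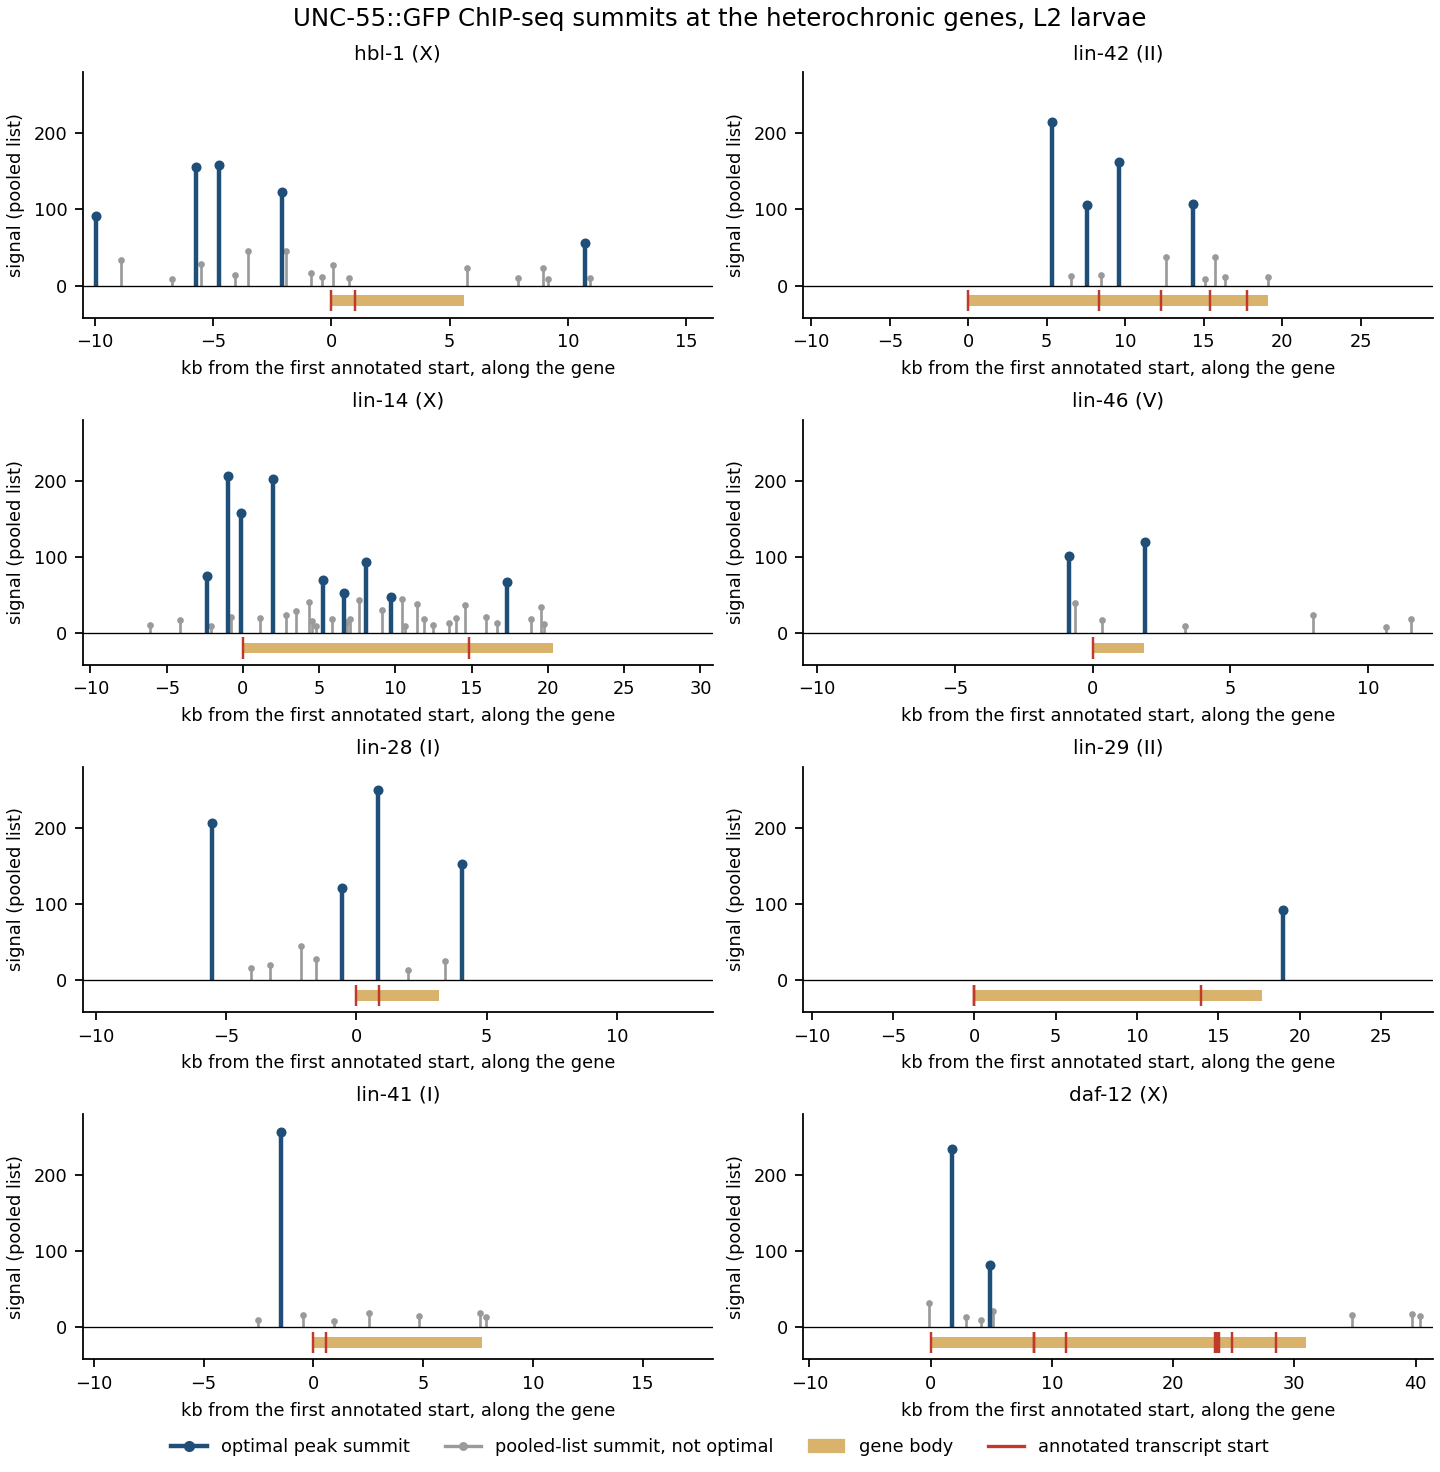
Signal of each pooled-list summit (vertical axis, caller's units) against its distance in kb from the first annotated start along the gene (horizontal axis), for the 8 genes with 10 kb on each side. Blue stems are optimal summits, grey stems are other pooled summits, bars are gene bodies and red ticks are annotated starts; lin-14 has 9 blue stems spread over its promoter and gene body, and lin-29 has 1, beyond its 3′ end.

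hbl-1 (WBGene00001824, X, 5822142 to 5827755, plus strand) had 5 optimal summits in its window and 3 nearest to its own start. Of all protein-coding genes, 4.341% had at least as many in the window and 1.742% at least as many nearest to their own starts. The 3 summits nearest to hbl-1 all lay upstream of the promoter window in intergenic sequence. The summit 5728 bp upstream had signal 156.1 and ranked 1779, 1892 and 1167 in replicates 1, 2 and 3. The summit 4758 bp upstream had signal 158.0 and ranked 2502, 2264 and 821. The summit 2103 bp upstream had signal 123.3 and ranked 3526, 1726 and 3457. Replicate 3 thus placed the first 2 of these peaks highest, and replicate 2 placed the third highest. Base composition differed among them, with 49.50%, 28.71% and 44.55% G and C within 50 bp of the summit in the same order, against a median of 43.56% over all optimal peaks.

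The other 2 optimal summits in the hbl-1 window were weaker and lay closer to neighbouring genes. One lay 9926 bp upstream (signal 90.86), with F13D11.3 holding the nearest start, and it ranked 3078, 5062 and 3679 in replicates 1, 2 and 3. The other lay in a coding exon of F13D11.4, 5093 bp past the end of hbl-1 (signal 56.10), and ranked 9109, 5711 and 3044. The first is the peak just inside the 10 kb limit. The nearest optimal peak outside the window lay 13566 bp from hbl-1 and had signal 575.9, at the start of puf-9, a Pumilio-family RNA-binding protein gene of the same developmental pathway.

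Close to the hbl-1 starts the pooled list held 5 weak summits that were not optimal. The strongest, 1903 bp upstream, had signal 44.77 and pooled rank 6081, against a lowest optimal signal of 45.76. Its interval began at 5820071, the base after the end of the optimal peak 2103 bp upstream. Replicates 1, 2 and 3 listed a peak 1866, 1904 and 1865 bp upstream, at ranks 7951, 16901 and 8262. The remaining pooled summits, at -842, -378, +56 and -244 bp, had signals of 16.98, 11.38, 26.30 and 9.616. Weak entries were thus listed near the hbl-1 starts in every replicate, and the pooled ones lay below the signal of the optimal peaks. The pooled list includes background and the replicate lists are relaxed, so such entries are not by themselves evidence of binding. No share of all genes with such entries is given. The −log10 of the caller's q-value ran from 0.227 to 4.116 for the 5 pooled summits. In the promoter window it ran from 2.979 to 4.179 in replicate 1, 0.2821 to 0.9833 in replicate 2 and 0.6774 to 4.264 in replicate 3.

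lin-14 (WBGene00003003, X, 11465560 to 11485871, plus strand), whose nuclear protein specifies L1 fates and whose mRNA is the classic target of lin-4, had the most optimal summits of the 8 genes. All 9 had lin-14 as the nearest start, and counting lin-14 itself, 2 protein-coding genes had at least as many. The share of protein-coding genes with at least as many summits in the window was 0.1502%. The same share was 10.34% for the counts of lin-28 and lin-42, 38.12% for lin-46 and daf-12, and 62.91% for lin-41 and lin-29. Windows grow with gene length, and per 10 kb lin-14 had 2.233 summits, a density that 2.493% of genes reached. The 3 strongest sat around the first start. The summit 969 bp upstream had signal 205.5 and ranked 699, 1496 and 1898 in replicates 1, 2 and 3. The summit 100 bp upstream had signal 157.2 and ranked 1717, 1962 and 2812. The intronic summit 1965 bp downstream had signal 202.3 and ranked 1149, 1098 and 1742. Replicate 3 gave the lowest place to all 3 of these peaks.

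The other 6 lin-14 summits were weaker, with signals from 46.49 to 92.44, and 5 of them were intronic. The lowest, 5114 bp upstream of the second annotated start, had optimal rank 5936 of 5993, and its replicate ranks were 6361, 5121 and 8547. The intronic summit 6609 bp downstream of the first start ranked 5326, 8790 and 3219. In the pooled list the lin-14 window held 37 summits, 28 of them not optimal, and the strongest of these had signal 44.53. The weakest optimal peaks of lin-14 were found in all 3 replicate lists, as were 82.0% of all optimal peaks by the same overlap rule, given below. The optimal list is a set of reproducible peaks, so presence in the replicate lists was likely beforehand and does not set lin-14 apart.

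lin-28 (WBGene00003014, I, 8407630 to 8410804, minus strand) encodes an RNA-binding protein that blocks maturation of let-7, and it had 4 optimal summits, 2 of them nearest to its own starts. The stronger of these lay in an intron 51 bp upstream of the second annotated start, with signal 249.9, and ranked 488, 933 and 1546 in replicates 1, 2 and 3. The other, 538 bp upstream of the first start, had signal 120.6 and ranked 2197, 3439 and 4285. Both were highest in replicate 1 and lowest in replicate 3. The remaining 2 summits lay at other starts. One was 472 bp upstream of sin-3, a co-repressor subunit gene, with signal 206.4 and ranks 1393, 1447 and 429. The other was 77 bp upstream of F02E9.1, with signal 152.5 and ranks 2316, 1295 and 3828.

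lin-41 (WBGene00003026, I, 9334800 to 9342496, minus strand), a TRIM-NHL RNA-binding protein gene that let-7 silences, had a single optimal summit. It lay 1494 bp upstream of the first start in intergenic sequence, and its signal of 257.1 (optimal rank 682) was the highest among the 28. It ranked 427, 892 and 1616 in replicates 1, 2 and 3. The next pooled summit of the window had signal 19.37, so that lin-41 combined the highest optimal-list signal of the 28 peaks with little else around it. It was not the strongest of them in every replicate.

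lin-42 (WBGene00018572, II, 1233236 to 1252359, minus strand) is the worm counterpart of Period and acts in the timing of the moults. Its 4 optimal summits were all intronic and all nearest to one of its 5 annotated starts. The strongest lay 2967 bp upstream of the second start with signal 215.4 and ranked 1143, 1453 and 700 in replicates 1, 2 and 3. A summit 1305 bp downstream of that start had signal 162.6 and ranked 1390, 2144 and 2285. The 2 promoter-window summits were weaker. The one 760 bp upstream of the second start had signal 105.7 and ranks 2360, 3698 and 4967. The one 1076 bp upstream of the fourth start had signal 106.6 and ranks 2412, 4996 and 3481. The last of these had 77.23% G and C within 50 bp of its summit, the highest of the 28. No optimal summit lay in the promoter window of the first lin-42 start.

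daf-12 (WBGene00000908, X, 10635908 to 10666875, plus strand) encodes the nuclear receptor that links steroid hormone to the choice of larval programme, and is the only nuclear receptor among the 8 genes. It had 2 optimal summits, both intronic. The stronger lay 1730 bp downstream of the first start, with signal 233.9 and ranks 1128, 745 and 606 in replicates 1, 2 and 3. The weaker lay 3596 bp upstream of the second start, with signal 81.96 and ranks 3848, 4221 and 5962. In the promoter windows of daf-12 the pooled list held 1 summit, 176 bp upstream of the first start, with signal 31.72 and pooled rank 7840. The strong daf-12 peak was thus in the first part of a long gene, and no pooled summit in its promoter windows was optimal.

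lin-46 (WBGene00003031, V, 12968855 to 12970730, plus strand), which encodes a gephyrin-like protein that opposes HBL-1, had 2 optimal summits at the starts of its neighbours. One lay 853 bp upstream of lin-46 and 20 bp upstream of R186.8, with signal 101.0, and replicates 1, 2 and 3 overlapped it at ranks 12329, 3505 and 2323. The other lay 15 bp past the end of lin-46 and 365 bp upstream of pnn-1, with signal 119.2 and ranks 3072, 1900 and 2700. lin-29 (WBGene00003015, II, 11917642 to 11935343, minus strand), the zinc finger transcription factor of the switch from larva to adult, had 1 optimal summit, 147 bp upstream of hmg-12 and 1276 bp past the lin-29 end. It had signal 91.63 and ranks 3548, 3576 and 3964. That was also the only pooled summit in the lin-29 window. The peaks in the windows of lin-46 and lin-29 were therefore next to other genes' starts.

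**Figure D2:**
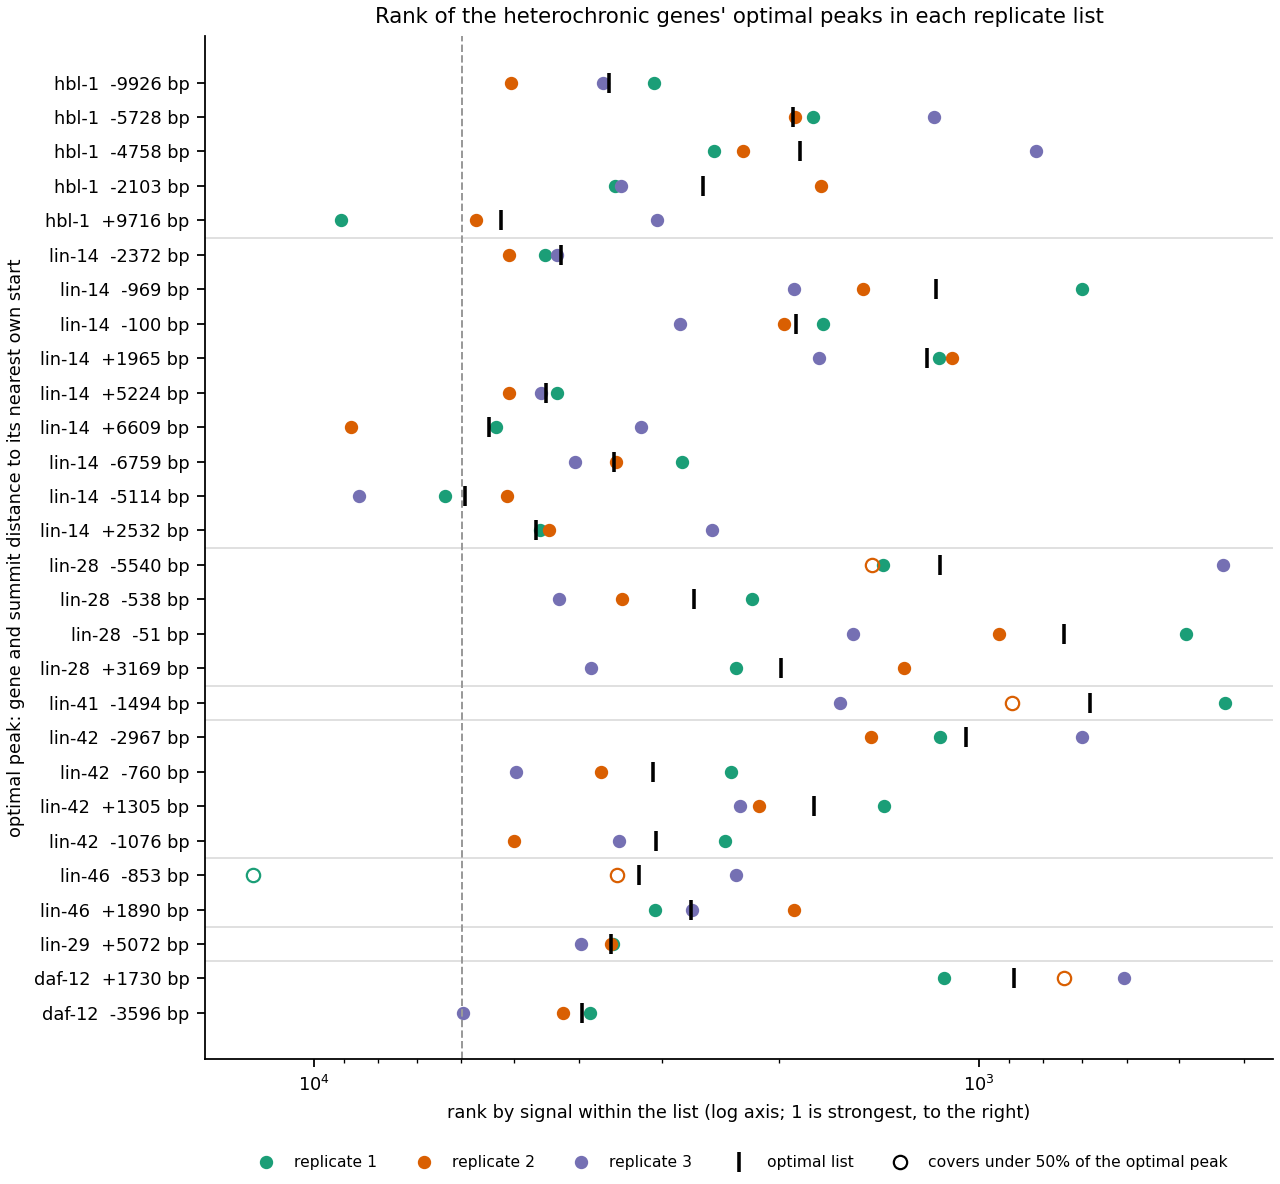
Rank by signal of each of the 28 optimal peaks (rows, named by gene and summit distance to that gene's nearest start) in replicates 1, 2 and 3 (coloured points) and in the optimal list (black ticks), on a log axis with the strongest to the right. The dashed line is rank 5993, open points cover under 50% of the optimal peak, and the widest scatter is at the lin-46 peak at -853 bp, from 12329 to 2323.

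Replicate support required a peak over 50% or more of the optimal peak's length. By that measure 24 of the 28 peaks were found in all 3 replicates, 85.71% against 82.0% of all optimal peaks. Among the 5993 strongest of every replicate there were 21, 75.0% against 56.5% of all optimal peaks. The 4 peaks that missed did so in replicate 2, and the lin-46 peak at -853 bp also in replicate 1. In replicate 2 the peaks over the sin-3 summit near lin-28, the lin-41 summit and the daf-12 summit at +1730 bp covered 43.41%, 47.68% and 29.97% of the optimal peak, although they ranked 1447, 892 and 745. The lin-46 peak was covered to 39.66% in both replicates 1 and 2. With any overlap, all 28 were found in all 3 replicates, but no share of all optimal peaks is given for that looser rule.

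The 8 genes were ordered by the percentile of their strongest peak in each replicate list, where 100 would be the top. These lists are far longer than the optimal list, so a high percentile was likely for any optimal peak. Only the order is read here, and windows with more listed peaks had more chances of a high value. Within the optimal list, the percentile of each gene's strongest peak ran from 88.64 for lin-41 to 40.40 for lin-29. The means were 97.86 ± 0.84 for lin-28, 97.12 ± 0.76 for daf-12, 96.41 ± 2.55 for lin-41 and 96.20 ± 1.04 for lin-42 (SD, n = 3 each). They were 95.71 ± 2.35 for lin-14 and 95.03 ± 1.50 for hbl-1. From lin-28 to hbl-1, the replicate ranges of neighbours in the order overlapped. lin-46 followed with 91.41 ± 2.02, and its highest replicate value of 93.67 was below the lowest of hbl-1, 94.07, but above the lowest of lin-14 and lin-41, 93.11 and 93.61. lin-29 came last with 86.86 ± 2.21, its highest value of 88.18 below the lowest of lin-46, 89.76. The strongest peaks of lin-46 and lin-29 were those nearest to other genes. In replicate 3 the strongest peak in the lin-28 window was the one at sin-3, and by its own peak at -51 bp lin-28 averaged 96.38 ± 2.29 (SD, n = 3), below daf-12 and lin-41.

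**Figure D3:**
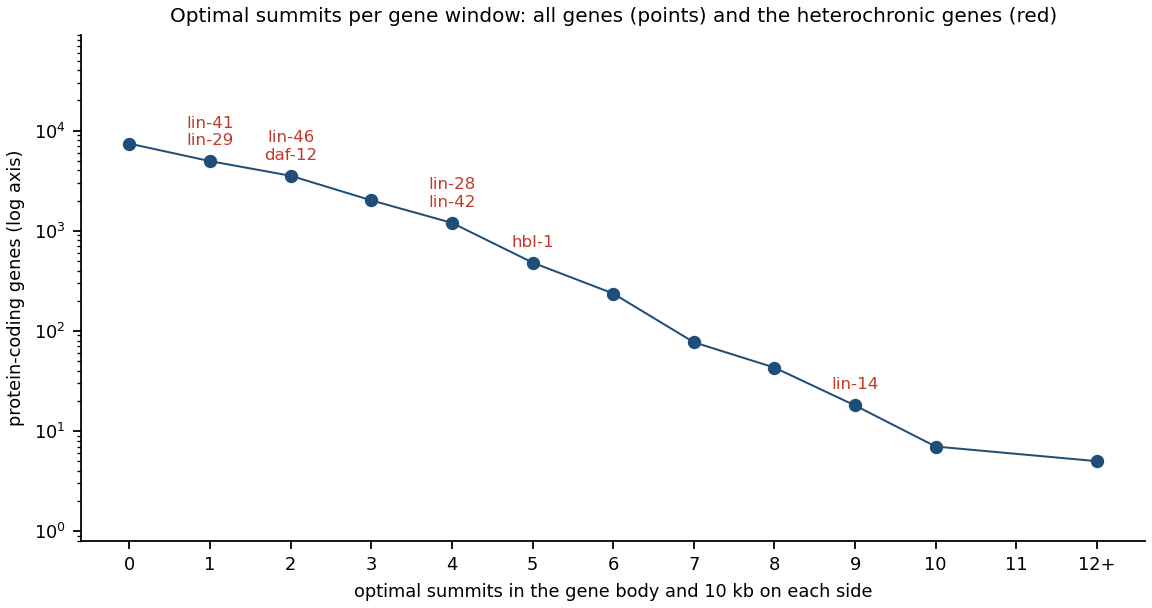
Number of protein-coding genes (vertical axis, log scale) with each count of optimal summits in the gene body and 10 kb on each side (horizontal axis), with the 8 heterochronic genes named in red at their own counts. lin-14 sits at 9, hbl-1 at 5, lin-28 and lin-42 at 4, and 7408 genes had 0.

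As a group, the windows of the 8 genes held 1.051 optimal summits per 10 kb, against 0.5977 over the nuclear genome, and the median of the 8 genes was 0.9681 against 0.4539 for all protein-coding genes. lin-14 and hbl-1 were the densest with 2.233 and 1.952, and lin-14 alone held 9 of the 28 summits. daf-12, lin-41 and lin-29 had 0.3924, 0.361 and 0.2652, below both the genome value and the median of all protein-coding genes. The higher group value was therefore not shared by all 8 genes. The median signal of the 28 peaks was 119.9, against 108.5 for all optimal peaks, and their best rank was 682. Of the 28 summits, 13 (46.43%) lay in introns, 14 in intergenic sequence and 1 in a coding exon, whereas 25.06% of all optimal summits were intronic. The intronic peaks came from lin-14, lin-42, daf-12 and lin-28, most of them from lin-14 and lin-42, and hbl-1 had none. The windows were drawn around gene bodies and the full list was not, so the intronic shares are not matched.

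AGGTCA is a core motif that many nuclear receptors bind. A search of both strands, 50 bp to each side of a summit, found it at 1 of the 28 summits (3.571%), the intronic lin-28 summit, against 1.37% of all optimal peaks and 2.419% of windows of the same length tiled over the genome. With 1 mismatch allowed, 12 of the 28 had a match, against 35.17% of all optimal peaks. No share of genome windows is given for that looser search, so its matches cannot be read as receptor sites. GAGAG, searched after the sequences had been seen, was found on either strand at 11 of the 28 (39.29%), against 41.33% of all optimal peaks and 12.53% of the genome windows. The 11 included the strongest peaks of lin-28, lin-41 and lin-42 but none of the 3 hbl-1 peaks printed above. The hbl-1 peak at -5728 bp held GAGAG 1 time, farther than 50 bp from its summit. The shares at the heterochronic genes were thus near those over all optimal peaks for GAGAG and for AGGTCA with a mismatch.

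Among 22 other protein-coding genes of developmental timing, 14 had an optimal summit in the promoter window and 18 had one in the wider window, with 25.5% and 62.9% of all protein-coding genes as the background. The strongest promoter summit had signal 596.5 and lay 1225 bp upstream of xrn-2, a nuclease that degrades mature microRNAs, but 170 bp upstream of Y48B6A.1. The puf-9 summit, 271 bp upstream, had signal 575.9 and ranked 30, 50 and 89 in replicates 1, 2 and 3. nhl-2, a TRIM-NHL cofactor of the microRNA complex, had a summit of signal 467.9 that lay closer to tag-340. ain-1, a GW182-family component of that complex, had signal 340.9 at 1001 bp upstream. sea-2 had signal 294.1 in an intron, and lin-66, which lowers LIN-28, had signal 221.9 at 332 bp upstream. The first 5 of these 6 genes exceeded the highest signal of the 28 peaks, 257.1. The 8 genes without a promoter summit were alg-1, daf-9, blmp-1, somi-1, nhr-85, nhr-23, nhr-25 and apl-1, 3 of them named as nuclear hormone receptors (nhr).

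**Figure D4:**
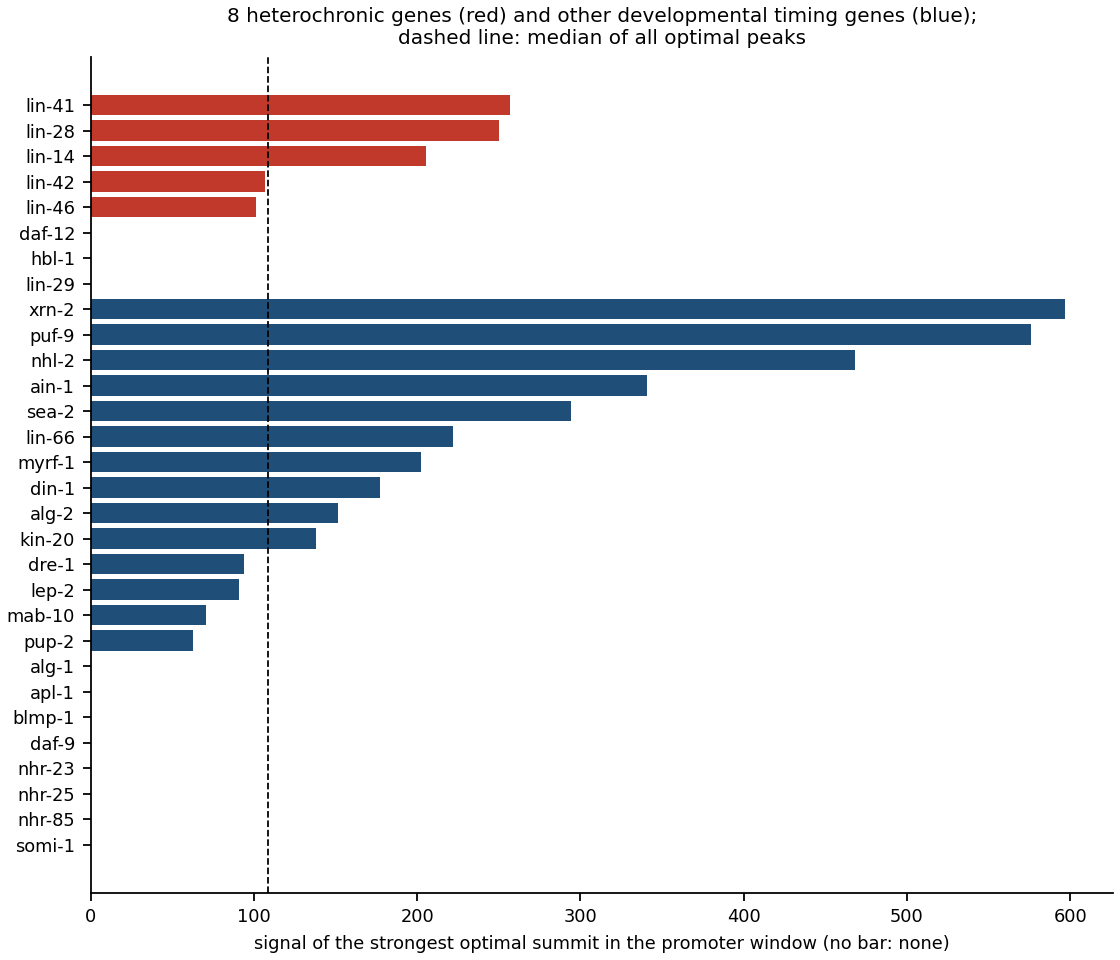
Signal of the strongest optimal summit in the promoter window (horizontal axis, caller's units) for the 8 heterochronic genes (red) and 22 other developmental timing genes (blue), with no bar where there was none. The dashed line is the median of all optimal peaks, 108.5, and xrn-2, puf-9, nhl-2, ain-1 and sea-2 lie beyond the red bars.

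The microRNAs that act on these genes are shown with their mature sequences from RefSeq (WBcel235), with the seed, bases 2 to 8, in capitals, because let-7, mir-48, mir-84 and mir-241 share 1 seed and lin-4, which acts on lin-14 and lin-28, has another. On the minus strand lie let-7 (chrX:14744234-14744255), mir-48 (chrV:14364472-14364494), mir-84 (chrX:16022447-16022470) and mir-241 (chrV:14366248-14366268), and on the plus strand lin-4 (chrII:5902269-5902289).
let-7: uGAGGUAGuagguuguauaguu
mir-48: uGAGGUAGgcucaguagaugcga
mir-84: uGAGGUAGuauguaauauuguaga
mir-241: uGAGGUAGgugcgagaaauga
lin-4: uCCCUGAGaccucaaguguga

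Peaks near the microRNA genes were assigned by the annotated starts of those genes. let-7 had an optimal summit 1849 bp upstream with signal 360.5, which was 133 bp upstream of C05G5.2 and ranked 284, 282 and 240 in replicates 1, 2 and 3, with under 50% coverage in replicate 3. mir-241 had one 413 bp upstream with signal 248.9 and ranks 588, 1306 and 345, again with under 50% coverage in replicate 3. The same summit was the strongest in the mir-48 window, 2187 bp upstream of mir-48. The nearest protein-coding start to that summit, unc-39, was 6378 bp away. lin-4 had 2 optimal summits in its promoter window and 4 in the wider window. The stronger in the promoter window, 425 bp upstream in an intron of F59G1.4, had signal 82.83 and ranks 4697, 4048 and 2217. The strongest in the wider window had signal 122.6 and lay 5359 bp downstream of the lin-4 start, 149 bp upstream of vps-35. mir-84 had its strongest summit 2330 bp upstream, just outside the promoter window, with signal 155.9. The non-coding RNA gene lep-5, which acts with lep-2 in timing, had 0 optimal summits in the promoter window and its strongest window summit had signal 111.5. In the promoter window, the let-7 and mir-241 summits lay above the median signal of all optimal peaks, 108.5, and the stronger lin-4 summit below it. In the wider window, the strongest summit of each of these microRNA genes lay above it. That comparison sets the strongest of up to 4 summits against a median of single peaks, which favours a value above it.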

How the data were processed

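UNC-55::GFP ChIP-seq peaks of 3 biological replicates of 1 group were used. The authors deposited narrowPeak lists in ce11 whose signal column is their caller's own score, with −log10 of a q-value per peak. Per the labels, replicates 1 and 2 give a fragment size range and replicate 3 gives sonication with a microtip. Per the notes deposited with the files, the 3 relaxed replicate lists and the pooled list were called against 1 shared control. The caller, the aligner and read depth are not named in any source used here. Gene positions came from Ensembl release 115, sequence from RefSeq. Peaks were assigned by summit with Python 3.11.15 and pandas 2.3.3, and the assignment was tested on simulated peaks. Replicate support needed an overlap of 50% of the optimal peak's length. The genes and lists were chosen with earlier results of these data known, so counts are set beside all genes or all optimal peaks, with no test. Named were all 8 genes, every optimal peak of their windows with its nearest gene, the 6 other pathway genes of strongest promoter summit, and the microRNA genes. Genes of the pathway without a promoter summit were named after their values were seen.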

Additional observations from a re-analysis of the deposited data

How the results depend on the processing

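Restricting the optimal list to the stronger peaks (signal above its median) left 15 of the 28 summits in the windows and 3 of the 5 genes with a promoter summit. A cut at the median keeps about 50% of all optimal peaks by construction. When each replicate was left out and the remaining replicates had to cover 50% of the peak, 3 to 4 genes had a promoter summit, and with any overlap, an alternative chosen after seeing the data, all 3 settings gave 5. Over the same left-out replicates 24 to 27 summits remained in the windows. No share of all protein-coding genes with a promoter summit is given for the stronger peaks or the left-out replicates. No share of all optimal peaks remaining is given for the left-out replicates either. Whether these losses were particular to the heterochronic genes was therefore not tested. One mismatch in AGGTCA raised the matching summits to 12. The other 32 alternatives for the main counts moved them by no more than 1.5 times. Among these, a required coverage of 80% left 16 of the 24 summits found in all 3 replicates. No share of all optimal peaks is given at that coverage. Of 48 alternatives for single genes, 15 moved by more than 1.5 times. For hbl-1 the count was 2 within 5 kb, 0 within 2 kb and 3 among the stronger peaks. The single lin-41 summit and the stronger daf-12 summit were lost without replicate 1 or 3 at 50% coverage, because the replicate 2 peak covered less. Read depth is unknown, so no limit on detection was computed. No paired analysis was possible because there is 1 group.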
